A study of Homo sapiens with 24 samples.

Results

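The DNA repair genes described here are 44 genes named by a fixed list of symbols and found by their gene IDs in a table of FPKM, a level of RNA scaled by transcript length and by the size of the library. They are 44 of the 58381 gene IDs in the table and of the 14228 genes that were tested. Each of the 44 symbols matched a gene ID, and each gene averaged 0.5 FPKM or more in the 24 libraries, so none was lost to the filter on low values. By role, 14 act in base excision repair, 9 in nucleotide excision repair, 2 in mismatch repair, 7 in homologous recombination and the Fanconi pathway, 4 in end joining, 7 in break sensing and the checkpoint, and 1 in direct reversal.

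The cells were HaCaT, an immortalised, non-malignant human keratinocyte line. All 8 groups were clonal lines transduced with a vector: 3 clones carried the empty vector and 3 carried hsa-miR-186, and both constructs were kept for 29 weeks in 0 or 100 nM inorganic arsenic (iAs). RNA was taken at weeks 12 and 29, with 3 libraries for each construct, dose and week. Each construct is therefore represented by 3 clones only, no label says which clone a replicate number stands for, and clones of 1 construct recur at both doses and both weeks. The p-values measure the spread between these libraries, and the comparisons averaged over groups, 12 libraries against 12, take libraries of the same 6 clones as separate samples. The mature microRNA is not measured by poly(A) libraries. Its gene MIR186 was listed at 0 in all 24, so the construct could not be checked on it. At week 12 and 0 nM its host gene ZRANB2 measured 31.7 ± 7.55 FPKM with the vector against 32.0 ± 0.937 FPKM with miR-186 (mean ± SD, n = 3). In the other groups the mean of ZRANB2 was higher with miR-186. At 100 nM and week 12 it was 28.6 ± 1.64 FPKM with the vector against 34.7 ± 2.02 FPKM. At week 29 it was 24.8 ± 4.99 against 45.3 ± 17.5 FPKM at 0 nM, and 28.9 ± 6.77 against 35.4 ± 4.29 FPKM at 100 nM. These are levels of the host gene and not of the construct, so they do not check the construct either.

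The FPKM of a library summed to between 712797 and 905683, with 13803 to 14588 genes at 0.5 FPKM or more. Absolute depth is not known from FPKM. The 8 keratinocyte markers summed to 1838 to 6699 FPKM per library, against at most 20.9 FPKM for lists of fibroblast, melanocyte, leukocyte and endothelial markers. Among fibroblast genes PDGFRA did not exceed 0.0658 FPKM, but COL1A1 reached 3.53 and LUM 17.2 FPKM. The endothelial gene CDH5 ran from 3.67 to 20.6 FPKM. In bulk RNA, fewer cells expressing a gene and less RNA per cell cannot be told apart.

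Base excision repair removes a single damaged base: a glycosylase cuts the base out, an endonuclease opens the strand, and a polymerase and a ligase fill and seal the gap. Nucleotide excision repair removes bulky lesions such as those that sunlight leaves in skin, mismatch repair corrects copying errors, and double-strand breaks are joined end to end or copied from a sister strand by homologous recombination. Arsenic is known for causing oxidative damage and for hindering repair proteins that hold zinc.

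Promoter windows are shown for the 4 members that rose from week 12 to week 29 under every alternative analysis tried on the averaged comparison, MUTYH, RAD50, CHEK1 and ERCC8, and for NEIL1, the member with the largest change that passed the test. They come from RefSeq (GRCh38.p14), where 38 of the 44 members have an entry, and run from 250 bases before to 50 after a listed start, each on the gene's own strand from 5′ to 3′. The windows are chr1:45340391-45340690 (minus strand, the first of 3 listed) for MUTYH, chr5:132556727-132557026 (plus) for RAD50, chr11:125625979-125626278 (plus, the first of 3) for CHEK1, chr5:60945021-60945320 (minus) for ERCC8 and chr15:75347585-75347884 (plus, the first of 3) for NEIL1. Capitals mark the letters CCAAT, or ATTGG where it lies on the other strand, the core of a box common in promoters of genes of dividing cells.
MUTYH: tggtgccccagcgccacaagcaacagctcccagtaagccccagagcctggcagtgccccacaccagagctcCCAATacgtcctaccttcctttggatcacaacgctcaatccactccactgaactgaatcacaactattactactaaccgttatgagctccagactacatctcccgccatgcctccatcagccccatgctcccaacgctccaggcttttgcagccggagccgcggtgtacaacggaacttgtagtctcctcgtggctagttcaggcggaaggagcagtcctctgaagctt
RAD50: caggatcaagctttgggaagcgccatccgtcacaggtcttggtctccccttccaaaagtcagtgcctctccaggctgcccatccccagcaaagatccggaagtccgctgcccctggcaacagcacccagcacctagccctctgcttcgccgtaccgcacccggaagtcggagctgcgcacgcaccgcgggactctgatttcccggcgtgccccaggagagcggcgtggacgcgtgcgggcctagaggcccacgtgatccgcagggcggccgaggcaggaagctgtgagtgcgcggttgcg
CHEK1: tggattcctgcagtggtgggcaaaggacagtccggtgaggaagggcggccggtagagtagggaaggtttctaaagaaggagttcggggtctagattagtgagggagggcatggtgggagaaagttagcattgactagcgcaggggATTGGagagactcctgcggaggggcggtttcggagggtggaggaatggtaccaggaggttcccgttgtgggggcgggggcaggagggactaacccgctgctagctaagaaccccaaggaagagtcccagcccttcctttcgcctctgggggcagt
ERCC8: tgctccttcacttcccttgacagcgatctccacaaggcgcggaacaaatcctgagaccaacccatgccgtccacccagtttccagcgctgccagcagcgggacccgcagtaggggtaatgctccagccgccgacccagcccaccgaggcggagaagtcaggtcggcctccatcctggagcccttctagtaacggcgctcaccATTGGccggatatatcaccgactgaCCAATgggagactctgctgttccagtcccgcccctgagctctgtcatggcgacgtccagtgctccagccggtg
NEIL1: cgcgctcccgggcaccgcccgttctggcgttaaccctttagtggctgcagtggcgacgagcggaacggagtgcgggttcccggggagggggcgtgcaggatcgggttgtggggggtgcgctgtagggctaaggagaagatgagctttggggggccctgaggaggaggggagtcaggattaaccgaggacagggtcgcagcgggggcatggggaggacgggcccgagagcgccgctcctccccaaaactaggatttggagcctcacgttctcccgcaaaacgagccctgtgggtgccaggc

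The windows of RAD50 and NEIL1 hold no such box and are 66.7% and 67.0% G or C. MUTYH and CHEK1 have 1 box each and ERCC8 has 2, at 56.3%, 59.7% and 62.3% G or C. Counting the first listed window of each member, 20 of 38 hold the box (52.6%), against 34.6% of all 35116 windows in the table. A search on both strands for TTTCCCGC, TTTGGCGC, TTTCGCGC and TTTGCCGC, letters of the site of the cell-cycle factor E2F, found a match in 5 of the 38 windows (13.2%) and in 3.3% of all windows. The 5 were MSH6, PMS2, FANCD2, FANCA and XRCC6, and none of the printed windows has one. The core of the antioxidant response element, TGACNNNGC with N for any base, was searched in the same way. It had a match in 5 of the 38 windows (13.2%) and in 13.3% of all windows. Of the printed windows only that of ERCC8 has this match. These are matches of letters, and binding was not measured.

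The 44 genes differed widely in level, and FPKM, being scaled by length, can be set side by side between genes. The highest were XRCC6, with XRCC5 the Ku dimer that caps broken ends, at a mean of 189 FPKM over the 24 libraries, APEX1, the endonuclease that cuts at a site without a base, at 150 FPKM, XRCC5 at 139 FPKM and RAD23B, which steadies the damage sensor XPC, at 128 FPKM. These were the 4 genes above 100 FPKM. The lowest 6, all under 5 FPKM, were the glycosylase NTHL1 at 1.84, MGMT, which takes alkyl groups off guanine, at 2.38, the helicase BRIP1 at 2.46, BRCA2 at 4.18, NEIL1 at 4.76 and the end-joining ligase LIG4 at 4.91 FPKM. The median of the gene means was 13.5 FPKM in base excision, 18.2 in nucleotide excision, 21.9 for the 2 mismatch genes, 8.32 in homologous recombination and the Fanconi pathway, 87.7 in end joining and 18.0 in break sensing.

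**Figure D1:**
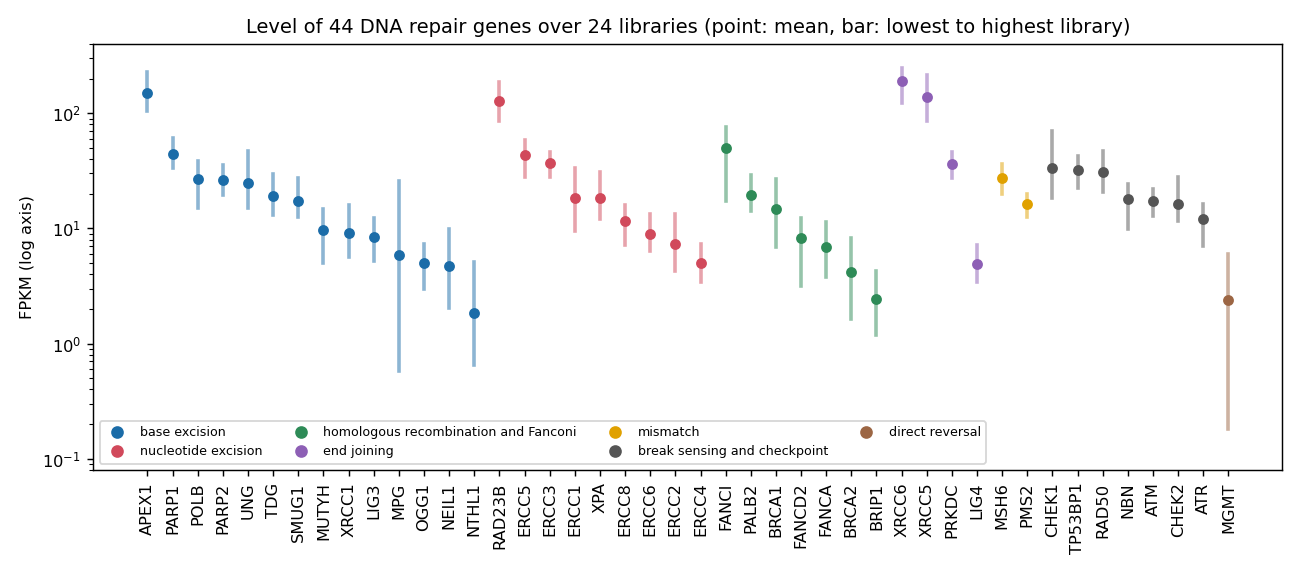
Level of each of the 44 repair genes in FPKM on a log axis, grouped by pathway; the point is the mean of the 24 libraries and the bar runs from the lowest to the highest library. XRCC6, APEX1, XRCC5 and RAD23B stand above 100 FPKM, and the bars of MPG and MGMT are by far the longest.

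For 30 of the 44 the highest library was under 3 times the lowest. Only 4 exceeded 5 times: MPG, the glycosylase that removes alkylated purines, ran from 0.583 to 25.7 FPKM (44.1-fold), MGMT from 0.180 to 5.97 FPKM (33.2-fold), NTHL1 7.92-fold and BRCA2 5.04-fold. None of these 4 passed the test in any comparison, and libraries of 1 group were often far apart. In replicates 1, 2 and 3 of the vector clones, MGMT stood at 2.87, 4.27 and 1.07 FPKM at 0 nM and at 2.85, 5.97 and 2.12 FPKM at 100 nM at week 12, and at 1.52, 3.86 and 0.686 and at 1.37, 4.65 and 0.180 FPKM at week 29. In all 4 vector groups replicate 2 was the highest and replicate 3 the lowest. In miR-186 clones MGMT stood at 3.75, 4.82 and 1.54 FPKM at 0 nM and 1.15, 2.97 and 3.25 FPKM at 100 nM at week 12, and at 1.35, 1.85 and 0.954 and at 0.552, 1.82 and 1.66 FPKM at week 29. In each of the 12 pairs of libraries that share construct, dose and replicate number, MGMT was lower at week 29 than at week 12. Between weeks the number did not pass the check as a pairing in exposed vector clones or in unexposed miR-186 clones. Those pairs, and the block below, therefore rest on a match that the values do not bear out in these groups. Its week change averaged over groups was -0.77 ± 0.31 (adjusted p = 0.0657), and it was called with a block for the replicate number (adjusted p = 0.00375) or without any of 5 single libraries: vector replicate 3 at 0 nM and week 12, vector replicate 2 at either dose and week 29, miR-186 replicate 3 at 0 nM and week 12, and miR-186 replicate 1 at 100 nM and week 12. In exposed vector clones at week 29, MPG stood at 11.6, 12.6 and 2.26 FPKM, so that the third library was lowest for MPG as for MGMT. That library was also the lowest of its group for NTHL1, XRCC1, ERCC1 and OGG1, and the highest for others such as POLB and RAD50. Its slope of log2 level on GC content over all genes, per 10 percentage points, was -0.282. In replicates 1 and 2 of the group the slope was 0.159 and 0.256. The part of GC content in these levels was not tested. At 0 nM and week 29, vector clones gave 9.56, 5.42 and 2.13 FPKM of MPG and miR-186 clones 1.43, 2.61 and 1.68, and those groups overlap.

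The 44 genes were compared between doses, constructs and weeks on the scale log2(FPKM + 0.5), where changes of low genes come out too small, and each change is given ± its standard error. A change was called where limma's p, adjusted by Benjamini-Hochberg over the 14228 genes, was under 0.05. Only comparisons of 2 groups in which 1 label differs were made, together with averages and differences of them. Of the 44 genes, 12 were called at least once and 32 never.

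**Figure D2:**
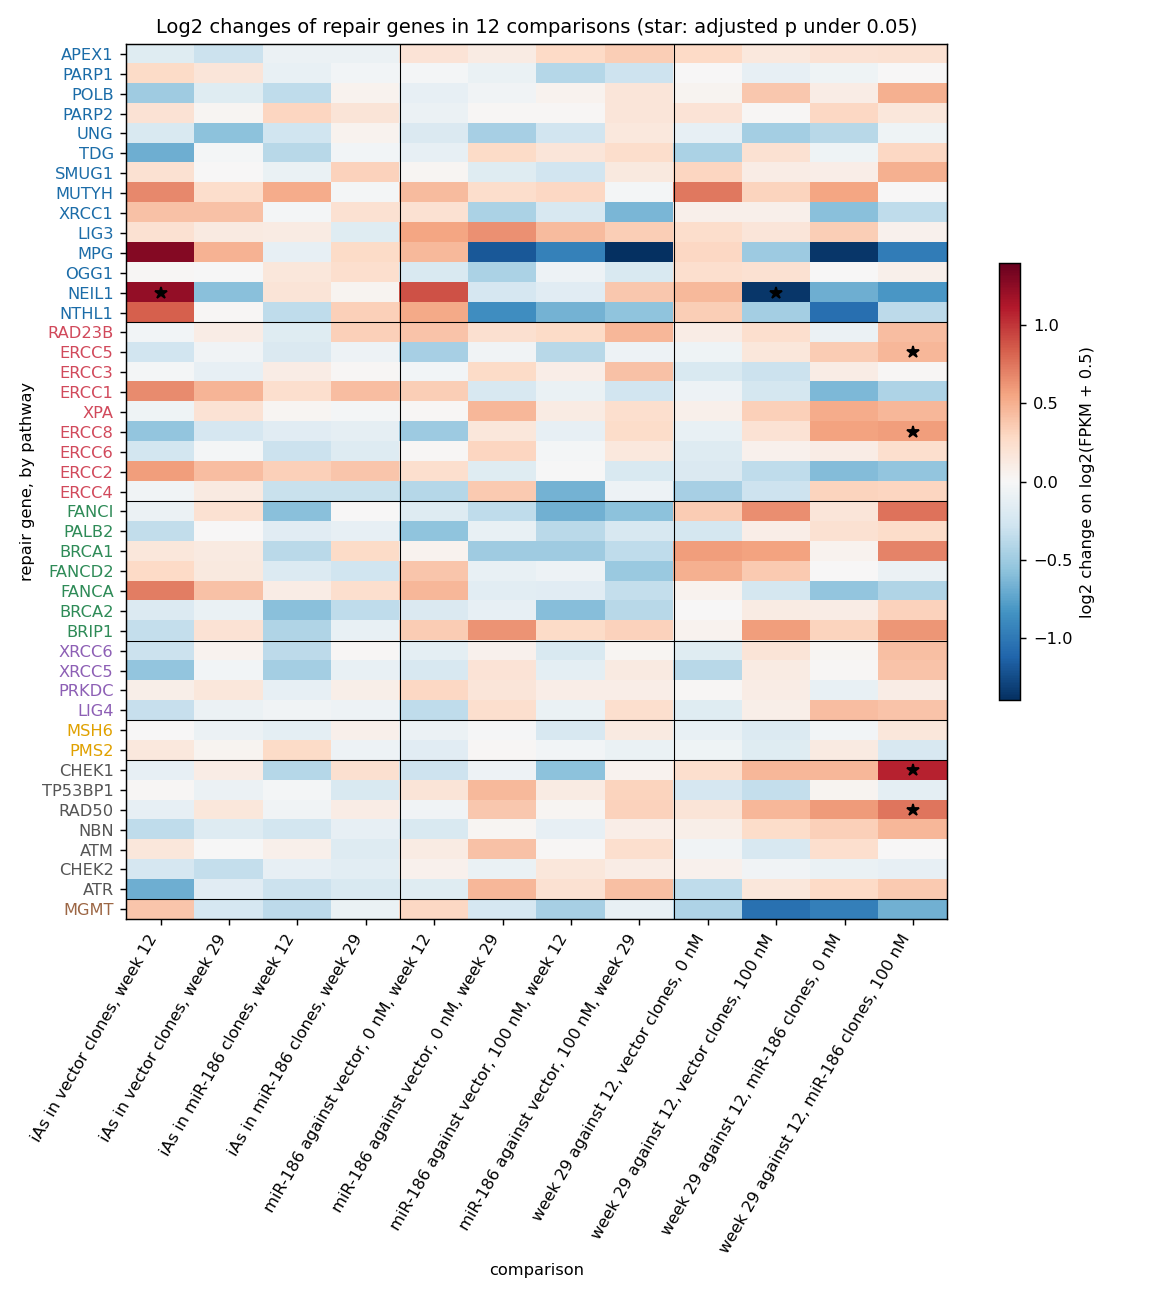
Log2 change of each repair gene (rows, coloured and divided by pathway) in the 12 comparisons of 2 groups (columns); red is higher and blue lower in the group named first or exposed to iAs, and a star marks an adjusted p under 0.05. There are 6 stars in all, none of them in the 4 columns that compare the constructs.

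The comparison of 100 with 0 nM iAs addresses what chronic arsenic does to the repair genes. In vector clones at week 12, 1 of the 44 was called, against 1.38% of all genes. This was NEIL1 (ENSG00000140398, GRCh38 chromosome 15, 75346955 to 75357114), a glycosylase that removes oxidised bases. Its FPKM were 2.22, 3.96 and 2.94 in the 3 libraries at 0 nM and 6.46, 9.88 and 6.97 at 100 nM. The groups do not overlap, and NEIL1 rose by 1.23 ± 0.27 (adjusted p = 0.0422).

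Leaving out any 1 of the 6 libraries compared ended that call, as did leaving out any of 8 of the 18 libraries of other groups, which share the estimate of spread. Without other single libraries more members were called: 2 (NEIL1 and ATR) without miR-186 replicate 3 at 100 nM and week 12 or replicate 2 at 0 nM and week 29, 4 without miR-186 replicate 2 at 100 nM and week 12 or vector replicate 2 at 100 nM and week 29, and 6 without vector replicate 3 at 100 nM and week 29. The call of NEIL1 also ended with a correction of each library for the GC content of genes, which left 0.57 ± 0.31 (adjusted p = 0.437). Across its alternatives the adjusted p ran from 0.0250 to 0.437. MAN2C1, a mannosidase gene that overlaps NEIL1 on the opposite strand, rose by 1.11 ± 0.22 in the same comparison (adjusted p = 0.0411), from 20.3 ± 0.886 to 44.5 ± 3.56 FPKM. The strand setting of the counting is not given in the sources used here, so reads of the overlap cannot be told apart.

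The other base excision genes spread in both directions at week 12 in vector clones. Of 14, 10 lay above 0 and 4 below, with a median of 0.21 beside 0.00 for all genes, and 1 was called. MPG at 1.29 ± 0.64, NTHL1 at 0.84 ± 0.41 and MUTYH, which removes adenine paired with oxidised guanine, at 0.67 ± 0.19 (adjusted p = 0.0577) were the highest besides NEIL1. Genes of end joining had a median of -0.31, and ATR, the kinase that answers stalled forks, stood at -0.68 ± 0.17 (adjusted p = 0.0507). Medians were -0.05 in nucleotide excision, 0.07 for the mismatch genes, -0.08 in homologous recombination and -0.12 in break sensing.

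These values ordered themselves by GC content. Base excision genes had a median of 50.9% G or C in their longest transcript, nucleotide excision genes 43.2% and break-sensing genes 41.4%. The 44 genes are not independent and share the 6 libraries of the comparison. Across them the correlation of GC content with the change in vector clones at week 12 was 0.80, and 0.07 after the GC correction. The correction removes from each library any trend with GC content, so a value near 0 after it largely follows from the correction. It would also remove a change that GC-rich genes shared. The 14 members of 50% G or C or more had a median change of 0.50 and the other 30 a median of -0.10, and after correction -0.03 and 0.16. The slope of log2 level on GC content over all genes, per 10 percentage points, was -0.136 ± 0.064 in vector clones at 0 nM and week 12 and 0.277 ± 0.132 at 100 nM (mean ± SD, n = 3).

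**Figure D3:**
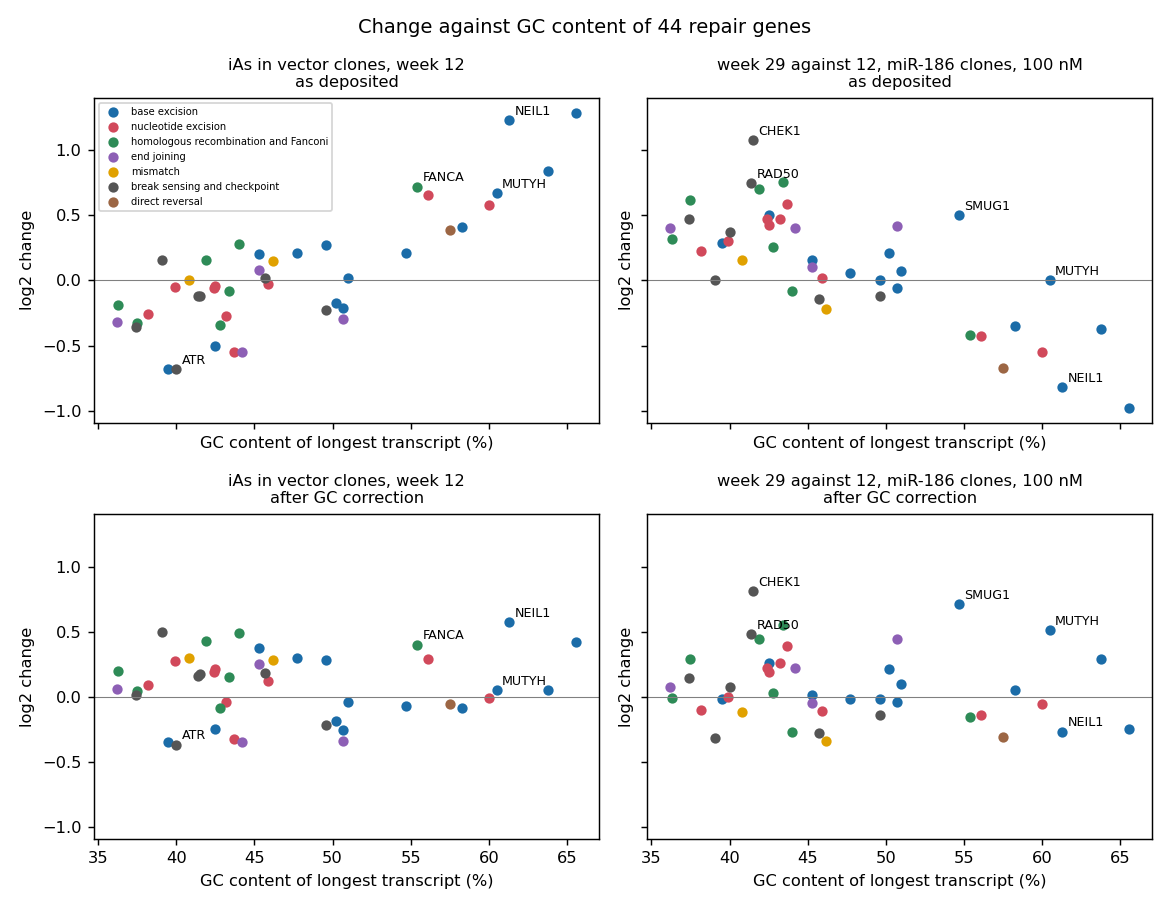
Log2 change of the 44 repair genes against the GC content of their longest transcript, for iAs in vector clones at week 12 (left) and week 29 against week 12 in miR-186 clones at 100 nM (right), as deposited (top) and after the GC correction (bottom), coloured by pathway. The upward slope on the left (r = 0.80) and the downward slope on the right (r = -0.75) give r of 0.07 and -0.13 after the correction, which removes such trends. RAD50, CHEK1 and SMUG1 remain high on the right.

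In the other 3 comparisons of dose no gene of the 14228 was called by limma. There, 555 genes had an unadjusted p under 0.05 in vector clones at week 29, 1558 in miR-186 clones at week 12 and 312 in miR-186 clones at week 29, of which 1, 4 and 0 were repair genes. The base excision median was 0.01, -0.08 and 0.05 in the same order. In miR-186 clones at week 12, 12 of the 44 genes lay above 0 and 32 below. Medians there were -0.16 in nucleotide excision, -0.38 in homologous recombination, -0.25 in end joining, -0.12 in break sensing and 0.07 for the mismatch genes. In vector clones at week 29 the member with the smallest p was again NEIL1, at 3.96, 5.67 and 3.35 FPKM without and 2.04, 3.23 and 2.87 FPKM with iAs. Here the exposed libraries are the lower ones, with no overlap, and the change was -0.58 ± 0.27 (adjusted p = 1.00). The difference between the iAs changes of NEIL1 at weeks 29 and 12 in vector clones was -1.81 ± 0.38 with an unadjusted p of 1.20e-04, but an adjusted p of 0.427.

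In miR-186 clones, MUTYH had the smallest p at week 12. It stood at 7.45, 7.33 and 8.21 FPKM at 0 nM and at 10.8, 12.4 and 10.5 FPKM at 100 nM. The groups do not overlap, yet the change of 0.52 ± 0.19 had an adjusted p of 0.359. At week 29 the smallest p belonged to RAD23B, at 148, 120 and 136 FPKM without and 153, 169 and 187 FPKM with iAs, also without overlap, and a change of 0.33 ± 0.17 (adjusted p = 0.999). NEIL1 stood at 5.87 to 6.06 FPKM without and 5.93, 7.47 and 7.10 FPKM with iAs at week 12 in these clones, a change of 0.18 ± 0.27, and the difference from vector clones was -1.05 ± 0.38 (adjusted p = 0.977).

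Averaged over both constructs and weeks, 4 of the 44 genes were called for dose, against 7.58% of all genes. Of these 3 were higher with iAs and 1 lower. ERCC2, a helicase subunit of TFIIH that opens DNA around a lesion, ran from 4.26 to 8.25 FPKM with a median of 5.86 at 0 nM, and from 5.11 to 13.4 with a median of 8.55 at 100 nM. It rose by 0.43 ± 0.11 (adjusted p = 0.0273). ERCC1, which with ERCC4 cuts the damaged strand on its 5′ side, had medians of 15.9 and 21.3 FPKM and rose by 0.45 ± 0.13 (adjusted p = 0.0439), its ranges of 9.44 to 23.0 and 11.6 to 33.6 FPKM overlapping widely. FOSB, which overlaps ERCC1 on the opposite strand at a mean of 71.5 FPKM, stood at -0.05 ± 0.26 on this average. KLC3, which overlaps ERCC2 on the opposite strand at a mean of 1.59 FPKM, stood at 0.47 ± 0.25 (adjusted p = 0.210).

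MUTYH ran from 5.00 to 12.7 FPKM with a median of 8.50 at 0 nM and from 6.81 to 14.8 with a median of 11.0 at 100 nM, and rose by 0.35 ± 0.09 (adjusted p = 0.0342). ATR fell by 0.34 on the log2 scale, with a standard error of 0.09 (adjusted p = 0.0296). It ran from 9.46 to 16.2 FPKM with a median of 13.9 at 0 nM and from 7.02 to 13.8 with a median of 10.6 at 100 nM. No member's 12 exposed libraries stood clear of its 12 unexposed ones. The share of all genes with that pattern was not counted for dose, so nothing particular to the repair genes can be read from it.

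None of these 4 calls held under the GC correction, which gave 0.15 ± 0.09 for ERCC2, 0.27 ± 0.09 for ERCC1, 0.06 ± 0.07 for MUTYH and -0.18 ± 0.07 for ATR, with adjusted p from 0.138 to 0.747. Across the 44 genes, r of GC content with this averaged change was 0.73, and -0.06 after the correction, which removes such a trend. The number of members called also fell to 0 on leaving out any of 4 libraries, namely vector replicate 2 at 0 nM and week 12, vector replicate 3 at 0 nM and week 29, and vector replicates 1 and 2 at 100 nM and week 29. It fell to 1, ERCC2, without miR-186 replicate 2 at 100 nM and week 12 or replicate 3 at 100 nM and week 29. It fell to 2 without any of 5 others (vector replicate 1 at 0 nM and week 12, vector replicate 3 at 100 nM and week 12, vector replicate 2 at 0 nM and week 29, miR-186 replicate 3 at 0 nM and week 29, and miR-186 replicate 2 at 100 nM and week 29), and it reached 7 without vector replicate 3 at 100 nM and week 29.

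The comparison of miR-186 with vector clones addresses whether the microRNA shifts the repair genes. None of the 44 was called in any of the 4 such comparisons. At 0 nM 3.44% of all genes were called at week 12 and 2.86% at week 29, and at 100 nM 2.02% and 0.864%. Over all 12 libraries of each construct, 0 of the 44 genes had ranges that do not overlap, a pattern that 0.787% of all genes showed. With 44 genes, counts of 0 are near what those percentages amount to.

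The members nearest to a call differed from 1 comparison to the next. At 0 nM and week 12 the smallest p belonged to PALB2, which brings BRCA2 to BRCA1, at 23.8, 29.0 and 22.1 FPKM in vector and 17.9, 17.8 and 14.6 FPKM in miR-186 clones. All miR-186 values lie lower, with a change of -0.56 ± 0.16 (adjusted p = 0.0540). PALB2 was called without vector replicate 2 or 3 at 100 nM and week 29, and NEIL1 without miR-186 replicate 2 or 3 at 100 nM and week 29. At 0 nM and week 29 it was LIG3, the ligase that seals the gap in base excision, at 7.45, 5.67 and 8.0 FPKM in vector and 11.3, 9.88 and 12.3 FPKM in miR-186 clones. Again the groups do not overlap, with the miR-186 clones higher by 0.64 ± 0.20 (adjusted p = 0.0852). With a block for the replicate number within each construct, LIG3 was called (adjusted p = 0.0453). That block does not pair vector with miR-186 libraries, so this is not a paired comparison.

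LIG3 lay above 0 in all 4 comparisons of construct, at 0.55 ± 0.20, 0.64 ± 0.20, 0.44 ± 0.20 and 0.34 ± 0.20 at 0 nM week 12, 0 nM week 29, 100 nM week 12 and 100 nM week 29. Its 12 vector libraries ran from 5.23 to 9.51 FPKM with a median of 6.36, and its 12 miR-186 libraries from 6.59 to 12.3 with a median of 9.97, so the ranges overlap. At 100 nM and week 12 the smallest p belonged to ERCC4, the nuclease partner of ERCC1, at 6.24, 6.15 and 5.48 FPKM in vector and 3.64, 3.43 and 3.68 FPKM in miR-186 clones. The groups are clearly apart, but the change of -0.66 ± 0.20 had an adjusted p of 0.0967, and 0.0459 with the GC correction. At 100 nM and week 29 it was ERCC3, the second TFIIH helicase, at 30.8, 31.8 and 28.2 FPKM against 43.8, 41.0 and 36.5 FPKM, without overlap, and 0.41 ± 0.14 (adjusted p = 0.178).

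Homologous recombination and Fanconi genes had a median difference between constructs of 0.05 at 0 nM and week 12, -0.11 at 0 nM and week 29, -0.38 at 100 nM and week 12, and -0.36 at 100 nM and week 29. In the last 3, 6 of the 7 genes lay below 0. A list of 20 genes of S phase and cell division had medians of 0.11, -0.49, -0.50 and -0.57 in the same order, with none of the 20 called. The part of proliferation in the values of the recombination genes was not tested. Break-sensing genes had medians of -0.05, 0.38, 0.03 and 0.24, nucleotide excision genes 0.02, 0.22, -0.03 and 0.15, end-joining genes -0.18, 0.18, -0.12 and 0.11, base excision genes 0.11, -0.13, -0.11 and 0.14, and the mismatch genes -0.12, 0.00, -0.13 and 0.02.

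Replicates of 1 group could differ more in the recombination genes than the groups did. In exposed miR-186 clones at week 29, the median deviation of the 7 genes from their means over the 24 libraries was 0.13, -0.73 and 0.69 in replicates 1, 2 and 3, beside -0.46, -0.83 and 0.60 for the proliferation list. BRCA2, a mediator of homologous recombination, stood there at 2.28, 1.64 and 8.25 FPKM, and BRCA1 at 16.9, 8.13 and 26.8 FPKM. The third library is the highest of the 24 for both genes. The median of the 14 base excision genes moved less, at -0.05, 0.12 and 0.01 in the same libraries. Single genes behind that median could still be far apart, with MPG at 0.583, 4.18 and 4.01 FPKM. In exposed vector clones at week 29 the base excision median was 0.23, 0.03 and -0.28.

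**Figure D4:**
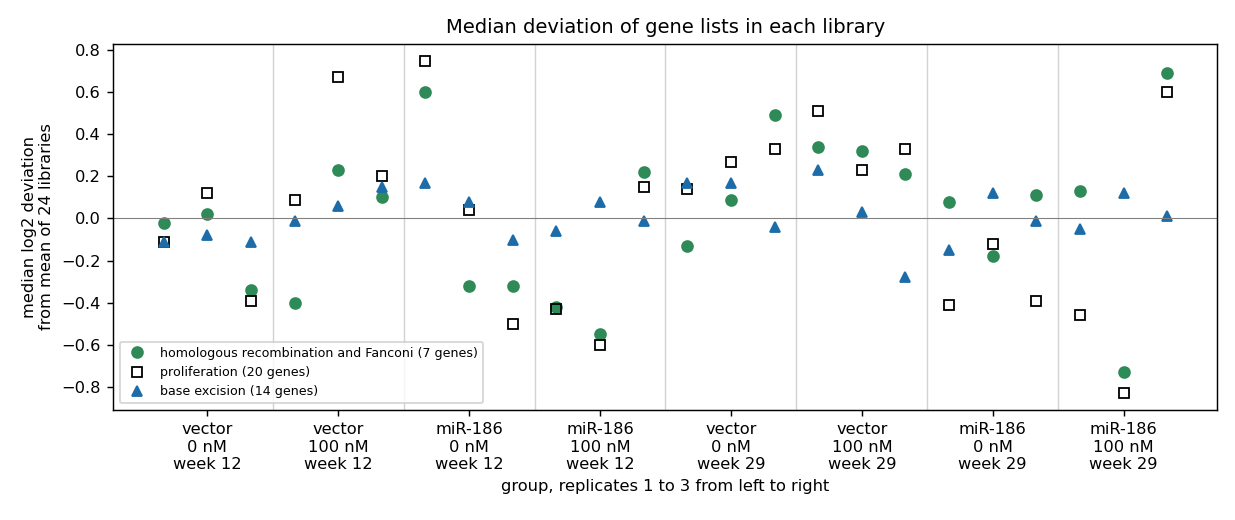
Median log2 deviation from the mean over 24 libraries of the 7 recombination and Fanconi genes (circles), 20 proliferation genes (open squares) and 14 base excision genes (triangles), for each library in its group. Replicates 2 and 3 of miR-186 clones at 100 nM and week 29 lie at -0.73 and 0.69 for the recombination genes and at -0.83 and 0.60 for the proliferation list.

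The comparison of week 29 with week 12 held most of the calls. In miR-186 clones at 100 nM, 4 of the 44 genes rose and none fell, against 12.2% of all genes called. Of the 4, 2 belong to break sensing and 2 to nucleotide excision. RAD50 (ENSG00000113522, GRCh38 chromosome 5, 132556019 to 132646344), the tether of the MRN complex that first binds a broken end, stood at 26.6, 22.8 and 24.5 FPKM at week 12 and 47.5, 32.7 and 47.1 FPKM at week 29. The weeks do not overlap, and RAD50 rose by 0.75 ± 0.17 (adjusted p = 0.0130).

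CHEK1, the kinase that ATR activates to hold the cell cycle, stood at 18.5, 18.5 and 21.8 FPKM at week 12 and 38.1, 27.4 and 70.2 FPKM at week 29. All week 29 values are higher but they are far apart, and the rise was 1.08 ± 0.25 (adjusted p = 0.0148). ERCC8, which marks stalled RNA polymerase for repair in transcribed genes, stood at 9.57, 7.24 and 8.77 FPKM and then 12.6, 11.7 and 14.8 FPKM, without overlap, a rise of 0.59 ± 0.18 (adjusted p = 0.0381). ERCC5, the nuclease that cuts on the 3′ side of a lesion, stood at 32.9, 28.0 and 34.6 FPKM and then 50.0, 41.3 and 41.9 FPKM, a rise of 0.47 ± 0.15 (adjusted p = 0.0425). CHEK1 overlaps STT3A on the same strand, a gene of protein glycosylation at a mean of 219 FPKM, whose own change was 0.88 ± 0.31 (adjusted p = 0.0615), and fragments in the shared stretch cannot be told apart. ERCC5 likewise overlaps BIVM, at 0.20 ± 0.18, and RAD50 a gene without a symbol at a mean of 6.60 FPKM.

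RAD50 and CHEK1 were still called after the GC correction, at 0.48 ± 0.14 (adjusted p = 0.0468) and 0.81 ± 0.23 (adjusted p = 0.0478), and ERCC8 (0.39 ± 0.15, adjusted p = 0.112) and ERCC5 (0.26 ± 0.11, adjusted p = 0.145) were not. With the correction SMUG1, a glycosylase for uracil, at 0.71 ± 0.20 and MUTYH at 0.51 ± 0.15 were called in their place. The replicate number paired the libraries in this comparison, and with it as a block 9 members were called: the 4, XRCC6, NBN, POLB and RAD23B, and NEIL1. Without miR-186 replicate 2 at week 12, or without replicate 3 at week 29, no member was called, without replicate 1 at week 29 CHEK1 alone was, and without replicate 2 at week 29 there were 8.

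In miR-186 clones at 0 nM, none of the 44 genes was called between weeks, against 2.90% of all genes. RAD50 had the smallest p, at 25.6, 22.5 and 28.8 FPKM at week 12 and 39.2, 34.7 and 43.3 FPKM at week 29. The weeks do not overlap, with a change of 0.60 ± 0.17 (adjusted p = 0.0585). It was called without miR-186 replicate 3 at week 12, and without 3 libraries of other groups: replicate 3 of exposed vector clones at either week, and replicate 2 of exposed miR-186 clones at week 29. ERCC8 was called without replicate 2 or 3 of exposed vector clones at week 29.

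In vector clones at 100 nM, 1 member was called, against 0.183% of all genes. NEIL1 stood at 6.46, 9.88 and 6.97 FPKM at week 12 and 2.04, 3.23 and 2.87 FPKM at week 29. It fell by 1.36 on the log2 scale, with a standard error of 0.27 (adjusted p = 0.0399), and the exposed vector clones of week 12 enter both this comparison and the rise described above. The call was lost with the GC correction (-0.99 ± 0.31, adjusted p = 0.208), without replicate 1 or 2 at week 12 or replicate 1 or 3 at week 29, and without any of 6 of the 18 libraries of other groups. MAN2C1 stood at -0.49 ± 0.22 there (adjusted p = 0.321).

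In vector clones at 0 nM, none of the 44 was called, against 0.907% of all genes. MUTYH had the smallest p, at 5.42, 5.00 and 6.18 FPKM at week 12 and 10.7, 9.27 and 8.78 FPKM at week 29. The weeks are well apart, and the change was 0.74 ± 0.19 (adjusted p = 0.0760), or 0.62 ± 0.15 with the GC correction (adjusted p = 0.0471). It was also called without vector replicate 3 at 100 nM and week 29.

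Averaged over constructs and doses, 10 of the 44 genes were called between weeks, 8 higher and 2 lower at week 29, against 30.4% of all genes, so the share of repair genes called was under that of all genes. No member had 12 week 29 libraries clear of its 12 week 12 libraries, a pattern that 0.351% of all genes showed. RAD50 ran from 20.9 to 29.9 FPKM with a median of 25.0 at week 12 and from 27.5 to 47.5 with a median of 33.7 at week 29, a rise of 0.50 ± 0.08 (adjusted p = 5.07e-04). CHEK1 had medians of 27.0 and 38.1 FPKM, in ranges of 18.5 to 40.4 and 27.4 to 70.2, and rose by 0.56 ± 0.13 (adjusted p = 0.00333). These 2 genes, with MUTYH and ERCC8, were called under all 32 alternatives to this comparison. RAD50 lay between 0.36 and 0.54 and CHEK1 between 0.43 and 0.64. STT3A, which overlaps CHEK1 on the same strand, was itself called higher on this average, at 0.50 ± 0.15 (adjusted p = 0.0193). Fragments in the stretch that CHEK1 and STT3A share cannot be told apart.

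MUTYH had medians of 7.83 and 10.9 FPKM, in ranges of 5.00 to 12.4 and 8.63 to 14.8, and rose by 0.40 ± 0.09 (adjusted p = 0.00478). With the GC correction its rise was larger, at 0.70 ± 0.07 (adjusted p = 2.35e-06). By group its week change was 0.74 ± 0.19 and 0.31 ± 0.19 in vector clones at 0 and 100 nM and 0.55 ± 0.19 and 0.00 ± 0.19 in miR-186 clones. The 3 lowest of the 24 libraries were those of unexposed vector clones at week 12, at 5.00 to 6.18 FPKM. TOE1, which overlaps MUTYH on the opposite strand, stood at 0.21 ± 0.09 (adjusted p = 0.0848) on the same average. ERCC8 had medians of 9.73 and 13.1 FPKM, in ranges of 7.24 to 16.0 and 7.80 to 15.4, and rose by 0.31 ± 0.09 (adjusted p = 0.0130).

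**Figure D5:**
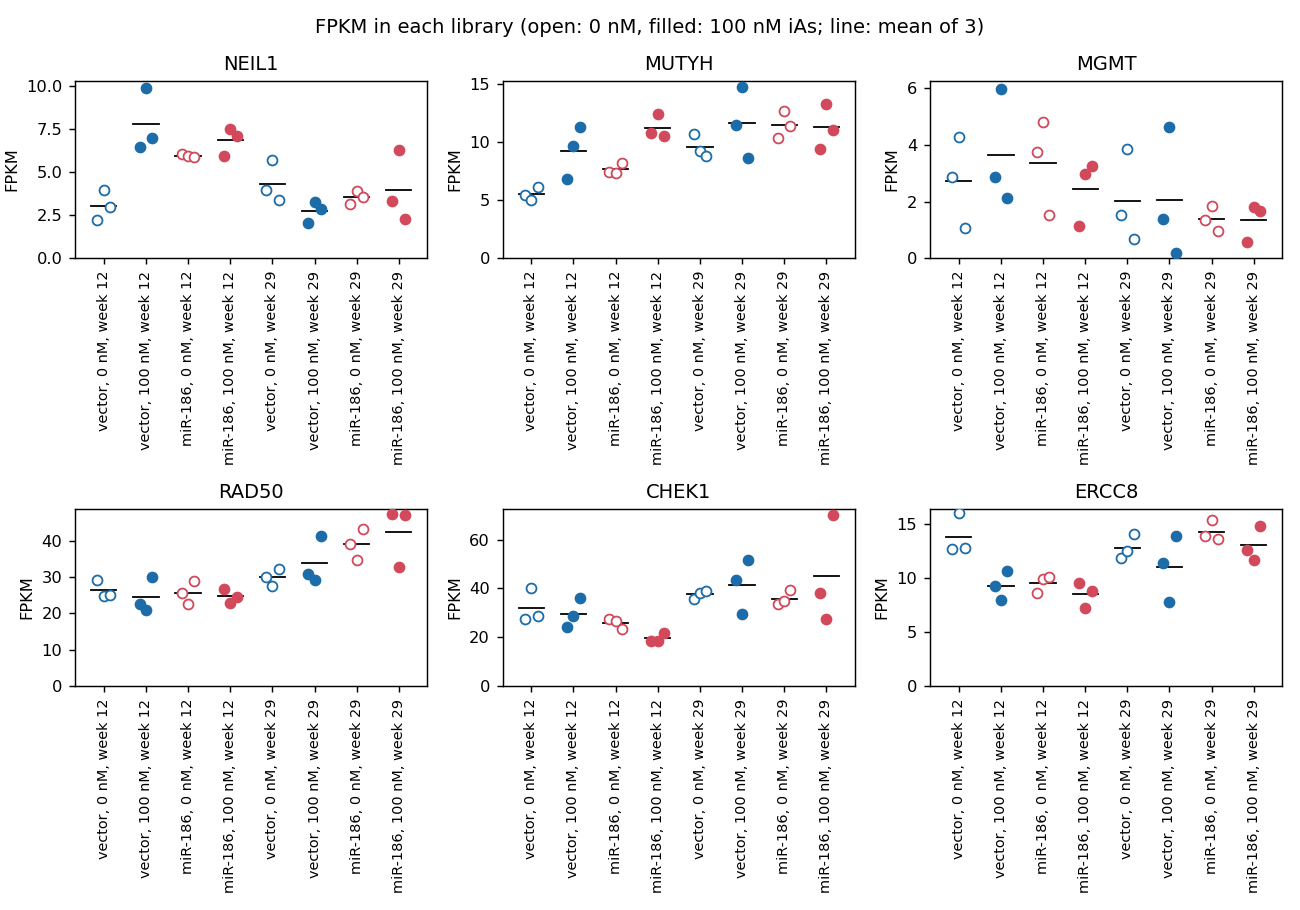
FPKM of NEIL1, MUTYH, MGMT, RAD50, CHEK1 and ERCC8 in each of the 24 libraries, by group (blue vector, red miR-186, open 0 nM, filled 100 nM, line at the mean of 3). NEIL1 is highest in vector clones at 100 nM and week 12 (6.46 to 9.88), RAD50 is highest in miR-186 clones at week 29, and MGMT spreads within groups.

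The remaining genes called on this average were XPA, ERCC5, BRIP1 and BRCA1 among those that rose and NEIL1 and ERCC2 as the 2 that fell. XPA, which checks the lesion in nucleotide excision, had medians of 15.9 FPKM at week 12 and 19.8 at week 29 (0.35 ± 0.10, adjusted p = 0.0137), in ranges of 12.0 to 20.8 and 13.5 to 30.9. ERCC5 had medians of 39.9 and 45.5 (0.23 ± 0.07, adjusted p = 0.0248), in ranges of 28.0 to 58.1 and 41.3 to 53.6. BRIP1, the helicase partner of BRCA1, had medians of 1.98 and 2.65 FPKM (0.39 ± 0.13, adjusted p = 0.0298), in ranges of 1.18 to 4.13 and 1.93 to 4.29. The call of BRIP1 was lost in 10 of 32 alternatives, among them 7 single libraries left out (vector replicate 3 at 0 nM and replicate 1 at 100 nM, miR-186 replicates 2 and 3 at 0 nM and replicate 2 at 100 nM, all of week 12, and miR-186 replicate 3 at either dose and week 29), and that of ERCC5 in 4, among them without miR-186 replicate 2 at 0 nM and week 12 or vector replicate 3 at 0 nM and week 29. All these ranges overlap.

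BRCA1, which starts homologous recombination at a resected break, had medians of 11.4 and 17.5 FPKM in ranges of 6.92 to 18.9 and 8.13 to 26.8 (0.47 ± 0.17, adjusted p = 0.0461). That call was lost in 21 of 32 alternatives, with adjusted p up to 0.140: without the filter, with median ratio scaling, with the GC correction alone or with the block, and on leaving out any of 17 of the 24 libraries. The 7 whose loss left it called were vector replicate 2 at 0 nM and replicate 3 at 100 nM of week 12, miR-186 replicate 1 at 0 nM and replicate 3 at 100 nM of week 12, vector replicate 2 at 100 nM of week 29, and miR-186 replicate 2 at either dose of week 29. NEIL1 had medians of 5.99 and 3.33 FPKM in ranges of 2.22 to 9.88 and 2.04 to 6.25, and fell by 0.60 on the log2 scale with a standard error of 0.13 (adjusted p = 0.00330). MAN2C1, which overlaps NEIL1 on the opposite strand, was also called lower on this average, at -0.33 ± 0.11 (adjusted p = 0.0300). ERCC2 had medians of 8.06 and 5.84 FPKM in ranges of 5.83 to 13.4 and 4.26 to 10.3, and fell by 0.43 with a standard error of 0.11 (adjusted p = 0.00609). With the GC correction 5 members were called, MUTYH, RAD50, CHEK1, ERCC8 and SMUG1, and NEIL1 (-0.28 ± 0.16) and ERCC2 (-0.14 ± 0.09) were not. Across the 44 genes, r of GC content with this change was -0.65, and -0.15 after the correction, which removes such a trend.

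By pathway, the averaged week change had a median of 0.06 in base excision (1 rose and 1 fell of 14), 0.05 in nucleotide excision (3 rose and 1 fell of 9), 0.20 in homologous recombination and the Fanconi pathway (2 rose of 7), 0.11 in break sensing (2 rose of 7) and 0.08 in end joining (none called of 4). MSH6, which recognises mismatches, and PMS2, which nicks the strand beside them, had a median of -0.06, and neither was called in any comparison. MSH6 ran from 19.9 to 36.4 FPKM and PMS2 from 12.6 to 19.8, the smallest ratio of highest to lowest library of the 44 genes (1.58). PMS2 has near-identical pseudogenes, so its level is uncertain. The median over all 44 was 0.10, beside 0.02 over all genes.

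A further 89 genes of the same pathways were listed, and all 89 were measured. Averaged over constructs and doses, 25 rose and 5 fell between weeks, 33.7% against 30.4% of all genes. GTF2H1, a core subunit of TFIIH, rose by 0.57 ± 0.08, ALKBH3, which reverses alkylation of bases, rose by 0.53 ± 0.09, and WEE1, a kinase that holds CDK1 inactive, fell by 0.78 with a standard error of 0.13. In miR-186 clones at 100 nM, 11 rose and 1 fell, 13.5% against 12.2% of all genes. Both shares are near those of all genes. The 3 with the smallest p there were GTF2H1 (0.96 ± 0.16), ALKBH3 (0.96 ± 0.18) and CCNH, a cyclin of TFIIH (0.77 ± 0.17). In miR-186 clones at 0 nM, GTF2H1 (0.65 ± 0.16) and XPC, the damage sensor of nucleotide excision (1.06 ± 0.27), rose, and in vector clones at 0 nM WEE1 fell by 1.20 with a standard error of 0.26.

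For dose, 5 of the 89 rose and 7 fell on the average, 13.5% against 7.58% of all genes, with RBX1, a ubiquitin ligase subunit, at -0.47 ± 0.09, CETN2, a partner of XPC, at -0.46 ± 0.10 and RAD9A, a clamp of the checkpoint, at 0.62 ± 0.14. In vector clones at week 12, RAD9A rose by 1.24 ± 0.27 and RBBP8, which starts resection of broken ends, fell by 0.85 with a standard error of 0.19, the 2 called making 2.25% against 1.38% of all genes. Between constructs, 2 of the 89 were called (2.25%, against 3.44% of all genes in that comparison), both lower in unexposed miR-186 clones at week 12: RBBP8 at -0.79 ± 0.19 and the glycosylase MBD4 at -0.54 ± 0.15. The unexposed vector libraries of week 12 enter both of the comparisons in which RBBP8 was lower.

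No gene of the 14228 was called in the 6 differences between changes (of dose between constructs or weeks, and of construct between weeks). At an unadjusted p under 0.05 they held 272 to 1910 genes, of which 0 to 5 were repair genes. A change called in 1 pair of groups was thus not shown to differ from that in another. For RAD50 the construct difference of week 29 less that of week 12 was 0.42 ± 0.24 at 0 nM and 0.29 ± 0.24 at 100 nM, and for CHEK1 0.22 ± 0.36 and 0.62 ± 0.36.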

How the data were processed

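RNA of 24 HaCaT libraries was prepared as stranded poly(A) libraries and sequenced together in paired ends, per the labels' protocols. The submitters' processing notes name STAR 2.6.0c, Cuffdiff 2.2.1 and GRCh38 as what the authors used to reach the deposited FPKM. The gene annotation and the strand setting are not given in the sources used here. Read counts were not used here, so no counting error is given and the depth is unknown; relative depth was estimated from the smallest steps of FPKM times length, at 0.825 to 1.082 of the median.

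The deposited FPKM were not rescaled. Of 58381 gene IDs, 58261 are in GENCODE release 29, which gave coordinates, overlaps and GC content. log2(FPKM + 0.5) was fitted to all 8 groups with limma 3.58.1 (R 4.3.3), for the 14228 genes whose mean reached 0.5 FPKM. The fit was robust and had a trend with intensity, and Benjamini-Hochberg adjustment ran over every gene tested. There were 20 comparisons: 12 of 2 groups, 2 averages and 6 differences of changes. The script was tested on simulated data.

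The 44 genes, the other lists and the tests were chosen with earlier results of these data known. Members called in any comparison, or with the smallest p where none was called, are given with their values, and of the other 89 pathway genes at most 3 called genes a comparison. The GC correction subtracts from each library a smooth curve over GC content (natural spline with 5 degrees of freedom), set by genes above 1.5 FPKM, for 14208 genes. The fit was also repeated with pseudocounts of 0.1 and 1, without the filter, with a minimum mean of 1 FPKM, with median ratio scaling, with a replicate block, on the compared groups alone, and with each library left out. Median ratio scaling moved the median of all genes by at most 0.046.

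The replicate number, taken from the labels, was checked as a pairing by the correlation of deviations from group means across genes. All 3 numbers exceeded 0.1 for iAs in vector clones at week 29 (0.491, 0.458 and 0.624), between constructs at 0 nM and week 29 (0.214, 0.227 and 0.198), and from week to week in unexposed vector clones (0.307, 0.521 and 0.168) and exposed miR-186 clones (0.341, 0.413 and 0.385). There the number was taken to pair libraries, on the strength of the values alone. The fit reported has no replicate block, so its changes and calls are unpaired in these comparisons too. The block is the number within each construct, so it pairs no vector library with a miR-186 library. Sequences are from RefSeq. A search for matches of the miR-186 seed was not run.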

Additional observations from a re-analysis of the deposited data

How the results depend on the processing

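The number of the 44 repair genes called was recomputed under each alternative. For iAs in vector clones at week 12 (1 called) it was 2 with a pseudocount of 1, with a mean of at least 1 FPKM or with median ratio scaling, 0 with no filter, with the GC correction, with both block and GC correction or with only the groups compared, and 4 with the replicate block. For week in vector clones at 100 nM (1) it was 0 with no filter, the GC correction or only the groups compared, and 1 with the block (NEIL1) and with block and GC correction (MUTYH). For week in miR-186 clones at 100 nM (4) it was 2 with no filter, 9 with the block and 0 with only the groups compared. For the iAs average (4) it was 0 with no filter or the GC correction and 1 with block and GC correction, and for the week average (10) it was 5 with the GC correction and 17 with the block.

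Where no member was called, the block gave 3 and the block with GC correction 2 between constructs at 0 nM and week 12. At 0 nM and week 29 the GC correction, the block and their combination gave 1 each. At 100 nM and week 12 the GC correction gave 1 and the combination 2. For week at 0 nM, the GC correction and the combination gave 1 each in vector and in miR-186 clones, and the block 1 in miR-186 clones. The cause of these shifts was not tested. Leaving out 1 of the libraries compared gave 0 to 0 for iAs in vector clones at week 12, 0 to 1 for week in vector clones at 100 nM and in miR-186 clones at 0 nM, 0 to 8 in miR-186 clones at 100 nM, 0 to 7 for the iAs average, 7 to 14 for the week average, and 0 in the other comparisons. Leaving out any 1 of all 24 widened this to 0 to 6 for iAs in vector clones at week 12, 0 to 2 for week in miR-186 clones at 0 nM, and 0 to 1 for week in vector clones at 0 nM and between constructs at 0 nM and week 12.

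Of 52 member changes recomputed, 3 changed sign under an alternative, none of them called in the fit reported. MUTYH for week in miR-186 clones at 100 nM, at 0.00, was 0.51 with the GC correction and with block and GC correction, and -0.12 to 0.11 on leaving out 1 of the libraries compared. With the GC correction, alone or with the block, NEIL1 for iAs in miR-186 clones at week 12 was -0.05, and CHEK1 for the construct difference of week 29 less week 12 at 0 nM was -0.11. Of the values under alternatives other than leaving out a library, 382 kept their side of the threshold, 45 lost the call, 20 gained it and 6 changed sign. The block with GC correction gave -0.56 for MGMT on the week average (adjusted p = 0.00702). The depth behind each FPKM is unknown, so what it limits could not be given.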
